A study of Drosophila melanogaster with 12 samples.

Results

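Peptidoglycan recognition proteins (PGRPs) are the sensors and the brakes of the fly's antibacterial response. Some bind peptidoglycan of the bacterial cell wall and switch on the Imd or the Toll pathway, which end in NF-kappaB factors and antimicrobial peptide genes. Others are amidases, enzymes that cut peptidoglycan so that it no longer stimulates the receptors, and several of these are themselves induced by the pathway they restrain. S2 cells are known as an Imd-responsive line, and the larval brain is not an immune organ in the way that fat body, gut and hemocytes (blood cells) are.

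The genes described here are 9 PGRP genes, taken by symbol and matched to their FlyBase identifiers, out of 17737 genes in the count tables. They were grouped by known role. The 4 activating receptors were PGRP-LC, PGRP-LE, PGRP-SA and PGRP-SD, the 2 receptor-like regulators without amidase activity were PGRP-LA and PGRP-LF, and the 3 amidases were PGRP-LB, PGRP-SC2 and PGRP-SB1. The annotation holds 4 further PGRP genes, for 13 in all. Poly(A) RNA of Drosophila melanogaster came from 12 libraries in 4 groups of 3: S2 cells labelled as controls, S2 cells given Atx2 dsRNA, control whole brains from larvae of the 3rd instar, and such brains with an Atx2 shRNA under elav gal4. The elav driver acts in neurons, so glia and attached tissue of the whole brain are not its main target. No dsRNA is named for the S2 controls, no driver or hairpin for the control brains, and no strain for any group. The labels do not say that replicates were separate cultures or animals, and the spread between libraries behind each p-value may be technical.

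Library totals ran from 14944637 to 29020252 counts in S2 cells, with every dsRNA library below every control, and from 26442727 to 31579528 in brain. Levels are given as CPM, counts scaled to library size with TMM factors computed within S2 cells or within brain. Atx2, the gene for the RNA-binding protein Ataxin-2, was at 218 to 242 CPM in S2 controls and at 149, 55.3 and 166 CPM with dsRNA (log2 fold change -0.89 ± 0.35 SE, edgeR adjusted p = 0.0613). In brain it was at 187 to 197 CPM in controls and 92.4 to 104.1 CPM with shRNA (-0.97 ± 0.08, adjusted p = 0.00271). The S2 libraries held the hemocyte markers Hml and srp, while NimC2 was at 0 counts in all 6 and NimC1 did not pass 0.285 CPM. All brain libraries held elav, nSyb and repo. Brain shRNA library 1 stood apart in gut enzyme genes, whose 10 markers summed to 2124 CPM there and to at most 3.46 CPM in the other 5 brain libraries. Control brain library 3 stood apart in salivary glue genes, with 1926 CPM against at most 28.2 CPM elsewhere.

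The 9 genes lie on 4 chromosome arms (BDGP6). PGRP-LA (FBgn0035975), PGRP-LC (FBgn0035976) and PGRP-LF (FBgn0035977) follow each other on the plus strand of 3L, at 9334332 to 9338336, 9338810 to 9348336 and 9349609 to 9351489, with 473 and 1272 bases between them. PGRP-LC has 10 annotated transcripts, whose different recognition domains a count per gene cannot separate. PGRP-SD (FBgn0035806) and PGRP-SB1 (FBgn0043578) are elsewhere on 3L, at 7651180 to 7651900 and 16727299 to 16727989. PGRP-LE (FBgn0030695) and PGRP-SA (FBgn0030310) are on X, at 15801153 to 15803880 and 11561643 to 11562779. PGRP-LB (FBgn0037906) is on 3R, at 11452849 to 11460552, and PGRP-SC2 (FBgn0043575) is on 2R, at 8716950 to 8717695. Of the 1355 exon bases of PGRP-LF, 602 overlap exons of UGP on the other strand, and the strand setting of the counting is not given in the sources used here. Whether reads in the shared stretch were counted for PGRP-LF, for UGP or for neither is therefore not known. The level of PGRP-LF per kb carries this limit. PGRP-SD shares 35 exon bases with CG7492 on the other strand, and the 3' ends of PGRP-SB1 and PGRP-SB2, on opposite strands, lie 10 bases apart.

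Per length of exon, the S2 control cells were led by the 2 secreted receptors. On a scale shared by all 12 libraries, the level of PGRP-SA was 69.1 ± 17.7 CPM per kb (SD, n = 3) and that of PGRP-SD 49.5 ± 6.27, and their ranges overlapped. PGRP-LC followed at 24.7 ± 2.69 CPM per kb and PGRP-LA at 24.6 ± 2.63, also with overlapping ranges, and then PGRP-LF at 11.4 ± 1.62. The amidases PGRP-SB1 (2.14 ± 1.09), PGRP-LB (0.675 ± 0.476) and PGRP-SC2 (0.384 ± 0.0323) and the receptor PGRP-LE (0.916 ± 0.231) made up the lower end. The ranges of PGRP-LE and PGRP-LB overlapped, as did those of PGRP-LB and PGRP-SC2.

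Control brains had another order. PGRP-LE, which senses peptidoglycan fragments inside cells, was highest at 13.8 ± 0.847 CPM per kb, and its range did not overlap the next. PGRP-SB1 (3.07 ± 0.592), PGRP-SA (2.93 ± 0.808), PGRP-LC (2.81 ± 0.0617), PGRP-LA (2.27 ± 0.616), PGRP-SD (2.06 ± 0.731) and PGRP-LB (1.40 ± 0.271) came next, and each neighbouring pair among these 6 overlapped. PGRP-LF (0.760 ± 0.303) and PGRP-SC2 (0.333 ± 0.210) were lowest and overlapped as well.

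With dsRNA, the S2 order changed in its middle. PGRP-SB1 (11.95 ± 6.49 CPM per kb) then lay between PGRP-LA (13.0 ± 2.71) and PGRP-LC (11.8 ± 1.87) and overlapped both. PGRP-LE (5.46 ± 0.832) overlapped PGRP-LF (6.58 ± 1.24), above PGRP-LB (1.76 ± 0.0271) and PGRP-SC2 (0.265 ± 0.0447). PGRP-SA (148.6 ± 83.1) and PGRP-SD (33.7 ± 7.37) remained the 2 highest. In the shRNA brains every pair of neighbours in the order overlapped, from PGRP-LE (15.9 ± 0.456) to PGRP-LF (1.53 ± 0.157).

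**Figure D1:**
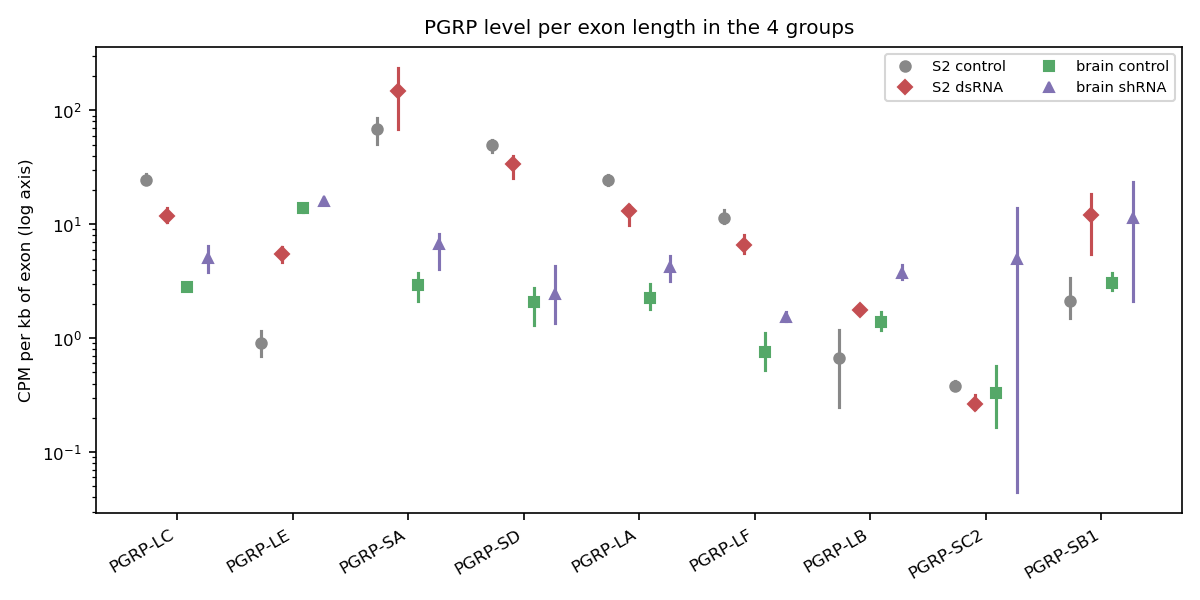
Mean level of each PGRP gene in CPM per kb of exon (log axis) in the 4 groups, with vertical lines from the lowest to the highest of 3 libraries. PGRP-SA and PGRP-SD lead in both S2 groups, and PGRP-LE has the highest mean in both brain groups, at 13.8 CPM per kb in controls and 15.9 with shRNA.

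Tested between control brain and control S2 cells, 5 of the 8 members that passed the filter on low counts were lower in brain and 1 was higher (edgeR, adjusted p under 0.05). Among all genes 80.1% passed in this comparison (41.9% higher and 38.3% lower), so the count of calls is near the background. The sizes were large on both sides. PGRP-LE was higher in brain by 3.93 ± 0.20 on the log2 scale (edgeR adjusted p = 5.12e-07). PGRP-SD (log2 -4.57 ± 0.27), PGRP-SA (-4.54 ± 0.27), PGRP-LF (-3.88 ± 0.30), PGRP-LA (-3.42 ± 0.20) and PGRP-LC (-3.12 ± 0.11) were lower. The amidases PGRP-LB (1.06 ± 0.51, adjusted p = 0.0846) and PGRP-SB1 (0.54 ± 0.40, adjusted p = 0.244) missed the threshold. Both passed without S2 control library 2 (1.74, adjusted p = 0.0153, and 1.02, adjusted p = 0.0426), the S2 control in which they were highest.

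In S2 cells with Atx2 dsRNA the family split. The cytosolic receptor PGRP-LE and the amidases PGRP-SB1 and PGRP-LB rose, while the membrane receptor PGRP-LC, its neighbours PGRP-LA and PGRP-LF, and the secreted PGRP-SD fell. Of 8 members tested 3 were higher and 4 lower, PGRP-SA missed the threshold, and PGRP-SC2 was too low to test. Among all genes 55% passed (28.5% higher and 26.6% lower), so it is the sizes and directions of single members, rather than their number, that these values describe. The median over the 8 was 0.27 on the log2 scale, against 0.04 over all genes tested. Without overlap between groups were 7 of the 8, 3 higher and 4 lower, where 63.8% of all genes had no overlap (33.3% higher and 30.5% lower). By role, 2 of 4 activating receptors fell and 1 rose, both regulators fell, and both amidases tested rose. Of these amidases, PGRP-LB passed the filter on low counts only with the dsRNA libraries. The untested amidase PGRP-SC2 had means of 0.274 CPM in controls and 0.189 CPM with dsRNA. Roles were known when the genes were grouped, and no test of a role against another was made.

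PGRP-LE was among the members with the largest fold changes, beside PGRP-SB1. Its level was 2.23, 1.42 and 1.79 CPM in the S2 controls and 10.4, 9.26 and 12.7 CPM with dsRNA, from 33 to 54 and from 217 to 249 counts. The lowest dsRNA library was thus several times the highest control. The log2 fold change was 2.57 ± 0.25 (edgeR adjusted p = 0.000122), and it passed in all 14 alternatives, at 2.39 to 3.05.

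PGRP-LC, the membrane receptor through which S2 cells respond to DAP-type peptidoglycan of Gram-negative bacteria, moved the other way. It was at 96.0, 82.5 and 86.7 CPM in controls and at 38.4, 49.9 and 37.7 CPM with dsRNA, with no overlap. The log2 fold change was -1.07 ± 0.14 (edgeR adjusted p = 0.000450), and it passed in all 14 alternatives, at -1.23 to -0.58. Both receptors feed the same Imd pathway. PGRP-LE per PGRP-LC, each per kb of exon, went from 0.0419, 0.0310 and 0.0373 in the control libraries to 0.488, 0.336 and 0.606 in the dsRNA libraries. This ratio does not depend on how libraries are scaled, and it is given without a test.

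The neighbours of PGRP-LC fell by similar amounts. PGRP-LA, a membrane protein that does not bind peptidoglycan and has been linked to Imd activation in fly airways, was at 53.1, 45.2 and 49.5 CPM in controls and 19.3, 29.0 and 29.6 CPM with dsRNA. Its log2 fold change was -0.92 ± 0.17 (edgeR adjusted p = 0.00282). PGRP-LF, which blocks PGRP-LC at the membrane, was at 16.6, 13.4 and 14.1 CPM and then 10.1, 7.94 and 7.35 CPM (-0.80 ± 0.19, edgeR adjusted p = 0.00773). Neither gene's groups overlapped. The ratio of PGRP-LA to PGRP-LC per kb was 0.979 to 1.02 in controls and 0.897 to 1.40 with dsRNA, and that of PGRP-LF to PGRP-LC 0.450 to 0.477 and 0.440 to 0.726. UGP, the gene that shares exon bases with PGRP-LF, fell from 112 ± 2.82 to 39.5 ± 0.328 CPM (-1.51 ± 0.09), and its part in the PGRP-LF value was not tested.

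With library totals alone as the scaling, the median log2 fold change of all genes moved from 0.04 to 0.53, and the calls from 2580 higher and 2406 lower to 4906 higher and 1324 lower (3406 and 1870 with upper quartile scaling). PGRP-LA (-0.44, adjusted p = 0.0533), PGRP-LF (-0.31, adjusted p = 0.170) and PGRP-SD (-0.08, adjusted p = 0.707) then missed the threshold, and each stayed below that median. PGRP-LC kept its call (-0.58).

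**Figure D2:**
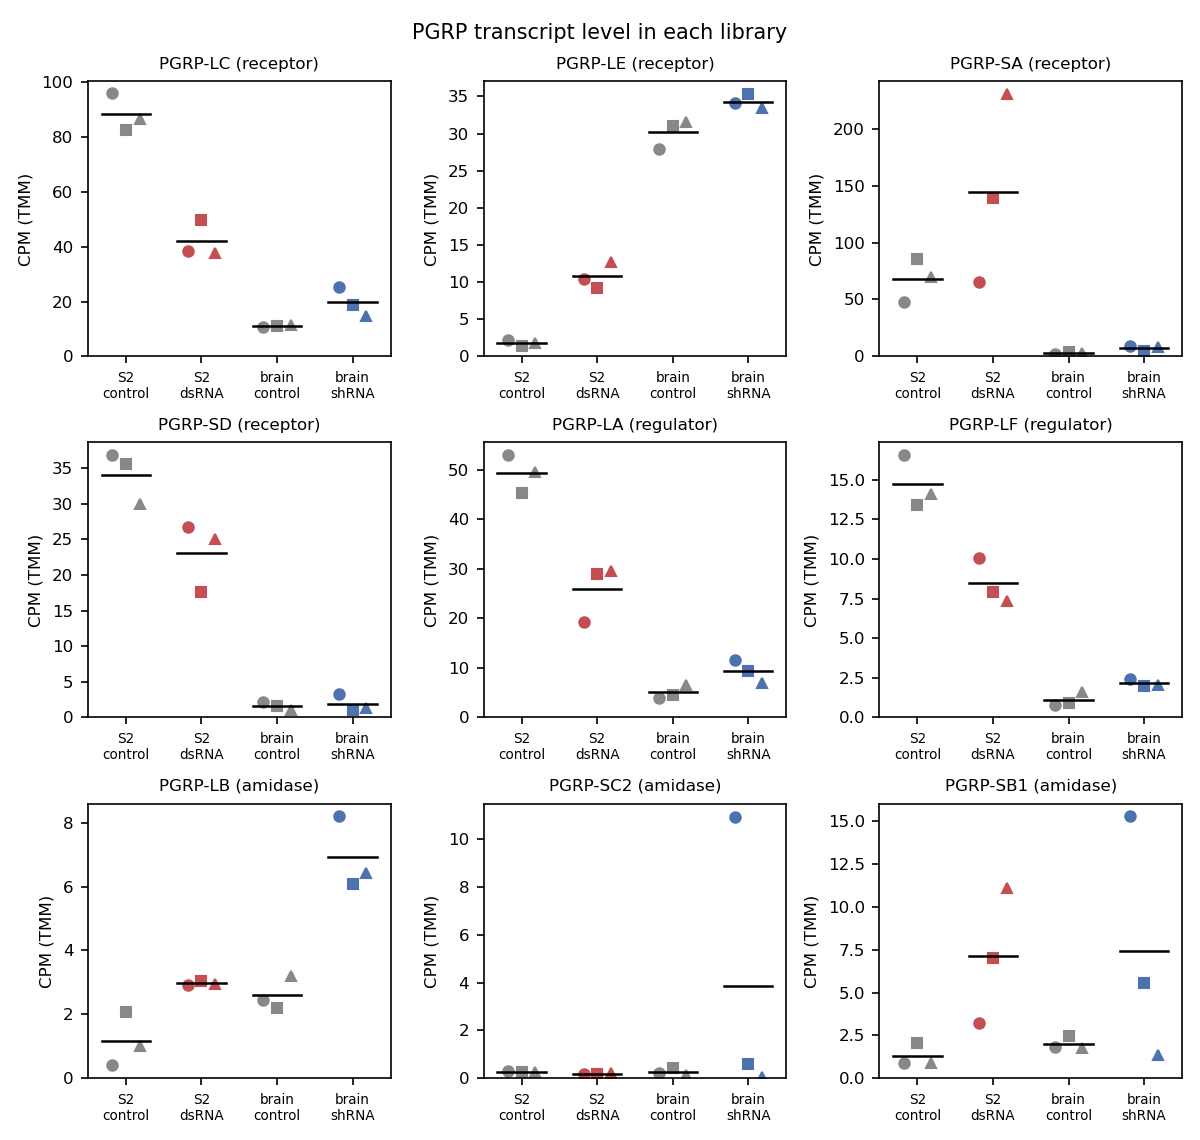
CPM after TMM scaling within each system for the 9 genes; points are libraries (circle, square and triangle for replicates 1, 2 and 3) and the bar is the mean of 3. PGRP-LC, PGRP-LA and PGRP-LF are lower with dsRNA in S2 cells and their shRNA libraries lie above all control brains, while PGRP-SC2 is high in 1 library, brain shRNA 1, at 10.9 CPM.

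PGRP-SD and PGRP-SA are secreted. PGRP-SD, reported to act with PGRP-SA upstream of Toll and also to promote Imd signalling, was at 36.8, 35.5 and 29.96 CPM in controls and 26.7, 17.6 and 25.0 CPM with dsRNA (log2 -0.56 ± 0.18, edgeR adjusted p = 0.0272). The groups did not overlap. Leaving out S2 control library 1 gave -0.52 and an adjusted p of 0.0637, leaving out control library 2 gave -0.56 and 0.0612, and leaving out dsRNA library 2 gave -0.41 and 0.0619, so each of these ended the call. Upper quartile scaling did so as well (-0.38, adjusted p = 0.0897). PGRP-SA, a sensor of Lys-type peptidoglycan upstream of Toll, was at 48.0, 85.8 and 69.4 CPM in controls and 65.1, 139 and 230 CPM with dsRNA. Its dsRNA libraries lay far apart, and the lowest lay inside the control range. The log2 fold change of 1.09 ± 0.42 missed the threshold (edgeR adjusted p = 0.0547). It passed in 8 of 14 alternatives, among them without dsRNA library 1 (1.44, adjusted p = 0.00262), and its adjusted p ranged from 0.00262 to 0.191.

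The amidases started from very low levels in S2 cells. PGRP-SB1, a secreted amidase with reported bactericidal activity, was at 0.866, 2.06 and 0.918 CPM in controls (20 to 48 counts) and 3.21, 7.04 and 11.1 CPM with dsRNA (77 to 195 counts). The groups did not overlap, and the log2 fold change of 2.46 ± 0.53 (edgeR adjusted p = 0.00517) passed in all 13 alternatives that tested it, at 1.98 to 2.96. PGRP-LB, the amidase that removes DAP-type peptidoglycan and limits Imd signalling, was at 0.412, 2.06 and 1.01 CPM in controls, from 10, 48 and 22 counts. With dsRNA it was at 2.92, 3.03 and 2.96 CPM, from 52 to 71 counts. All 3 dsRNA libraries were above the highest control (1.35 ± 0.49, edgeR adjusted p = 0.0464). That call was lost in 5 of 6 fits without 1 library: S2 control 1 (0.93, adjusted p = 0.0762), control 3 (1.25, adjusted p = 0.135), dsRNA 1 (1.36, adjusted p = 0.0613), dsRNA 2 (1.33, adjusted p = 0.105) or dsRNA 3 (1.34, adjusted p = 0.0804). Without S2 control 2 it was 2.04 (adjusted p = 0.00901). PGRP-SC2, an amidase best known from the gut, had 6 to 7 counts in the controls and 4 in each dsRNA library.

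The hemocyte marker list, 12 genes, moved in these libraries too. Its summed level was 10360 to 11500 CPM in S2 controls and 3456 to 3920 CPM with dsRNA. Col4a1 and vkg made up most of these sums. Col4a1 was at 3678 to 4669 CPM in controls and 1535 to 1795 CPM with dsRNA, and vkg at 3345 to 4500 and 1011 to 1249 CPM. Of 9 tested markers 8 were lower and 1 higher, where 26.6% of all genes were lower and 28.5% higher. The 8 muscle markers summed to 308 to 362 CPM in controls and to at most 108 CPM with dsRNA. Zasp52 alone made up most of these sums, at 304 to 356.5 CPM in controls and 95.1 to 102.6 CPM with dsRNA. Of the 3 muscle markers tested 1 was higher and 1 lower. The part of these lists in the lower levels of PGRP-LC, PGRP-LA, PGRP-LF and PGRP-SD was not tested. In bulk RNA, fewer cells of a type and less RNA per cell cannot be told apart. Nor can the loss of Atx2 and the dsRNA treatment as such be told apart, since no dsRNA is named for the controls.

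Downstream of the receptors, the Imd list of 20 genes had 5 higher and 6 lower in S2 cells, 9 that missed the threshold, and a median of 0.09. The share called equals the 55% of all genes called there, so the count says nothing about the list. Calls went both ways among restraints and activators of the pathway. Higher were dnr1, an inhibitor of the caspase Dredd (log2 2.80 ± 0.43), pirk, which withdraws PGRP-LC from signalling (0.82 ± 0.18), and trbd, a deubiquitinase acting on Tak1 (0.69 ± 0.12). Dredd itself, which cleaves imd and Relish, was higher by 0.64 ± 0.10. Tab2, the adaptor of the kinase Tak1, fell from 156 ± 23.1 to 38.9 ± 4.77 CPM (-1.998 ± 0.15). The deubiquitinase scny, which restrains imd (-0.66 ± 0.11), Uev1A, a ubiquitin-conjugating enzyme variant (-0.63 ± 0.09), and Rel, the NF-kappaB factor of the pathway (-0.59 ± 0.16), fell as well.

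Of the Toll list, 20 genes were matched and 17 tested in S2 cells, with 6 higher, 8 lower, 3 that missed the threshold and a median of 0.04, where 28.5% of all genes were higher and 26.6% lower. The protease gene grass, which acts between PGRP-SA and the Toll ligand, fell from 44.5 ± 4.75 to 3.41 ± 0.242 CPM (log2 -3.70 ± 0.15). The NF-kappaB factor dl (-2.01 ± 0.09), the beta-glucan sensor GNBP3 (-1.86 ± 0.12) and the receptor Tl (-1.84 ± 0.13) also fell. Pli, the fly Pellino, rose from 64.2 ± 7.75 to 234 ± 64.6 CPM (1.87 ± 0.21). The protease genes spirit (4.24 ± 0.65), modSP (3.44 ± 0.77) and SPE (1.83 ± 0.43) rose to means of at most 1.75 CPM. Their S2 control libraries held at most 3, 5 and 9 counts. They thus passed the filter on low counts only through the dsRNA libraries, and their fold changes rest on controls near 0. Of 15 antimicrobial peptide genes, the output of both pathways, 11 were higher and 1 lower, 3 missed the threshold, and the median was 2.05. Among those called higher, Def, DptA and AttD had 5 to 7, 8 to 21 and 9 to 36 counts in the controls. These genes passed the filter on low counts only with the dsRNA libraries, so their part in the count and the median is not free of the filter. The summed level of the 15 genes was 136 to 268 CPM in the controls and 639 to 1178 CPM with dsRNA. CecC was the lower one (19.8 ± 2.42 to 6.22 ± 2.11 CPM), and Drs, a peptide gene often used as a readout of Toll, rose from 11.2 ± 0.943 to 187 ± 129.9 CPM.

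**Figure D3:**
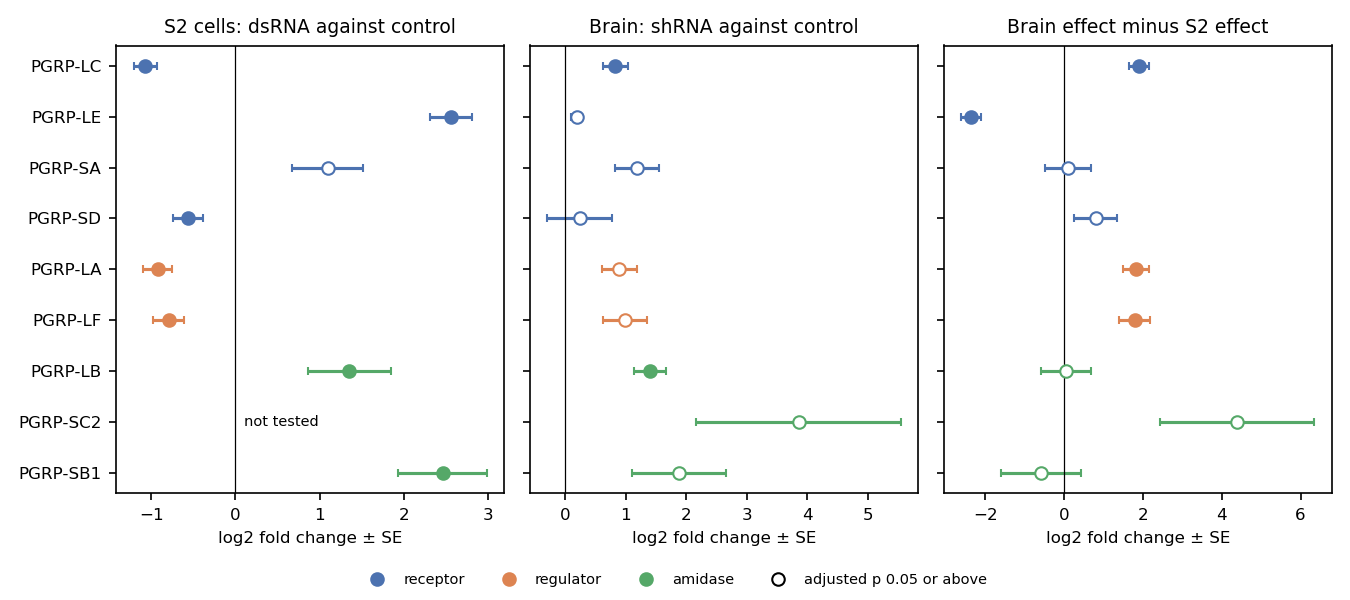
Log2 fold change with its SE (edgeR) for each of the 9 genes in S2 cells, in brain, and for the brain effect minus the S2 effect; filled points passed the adjusted p threshold and colours give the role. PGRP-LC is below 0 in S2 cells (-1.07) and above 0 in brain (0.82).

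In brains with Atx2 shRNA none of the 9 members fell past the threshold and 2 rose, the receptor PGRP-LC and the amidase PGRP-LB (edgeR, adjusted p under 0.05; 6 of the 9 had an unadjusted p under 0.05, as did 39.4% of all genes). Among all genes 23% passed, 11.5% in each direction. The share of members called, 2 of 9, is close to that background. The median over the 9 members was 0.98 on the log2 scale, against 0.01 over all genes tested. By role, 1 of 4 activating receptors, 0 of 2 regulators and 1 of 3 amidases were called. DESeq2 called 6 of the 9, all higher, where it called 16.3% of all genes higher. PGRP-SC2 and PGRP-SB1 were among these 6, although both lay below every control in shRNA library 3.

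PGRP-LB was at 2.46, 2.20 and 3.21 CPM in control brains and 8.21, 6.09 and 6.44 CPM with shRNA. Every shRNA library lay well above the highest control, with 166 to 214 counts against 69 to 97. The log2 fold change was 1.40 ± 0.26 (edgeR adjusted p = 0.0147). It was lost without control library 1 (1.35, adjusted p = 0.0575) and without control library 2 (1.30, adjusted p = 0.0668). It passed in 11 of 14 alternatives, at 1.26 to 1.56, and among these it held with shRNA library 1 left out.

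PGRP-LC was at 10.8, 11.2 and 11.4 CPM in control brains and 25.4, 18.9 and 14.7 CPM with shRNA (0.82 ± 0.20, edgeR adjusted p = 0.0325). The controls lay close together and each shRNA library was above them. The call was lost in 5 of 6 fits without 1 library: control 1 (0.80, adjusted p = 0.101), control 2 (0.84, adjusted p = 0.105), control 3 (0.83, adjusted p = 0.0747), shRNA 1 (0.60, adjusted p = 0.0605) and shRNA 2 (0.85, adjusted p = 0.0862). It passed without shRNA 3 (1.00, adjusted p = 0.0161).

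The genes beside PGRP-LC had like values without a call. PGRP-LA was at 3.97, 4.52 and 6.61 CPM in control brains and 11.6, 9.40 and 6.92 CPM with shRNA (0.89 ± 0.29, edgeR adjusted p = 0.0691). PGRP-LF was at 0.752, 0.924 and 1.59 CPM and then 2.42, 1.98 and 2.06 CPM (0.98 ± 0.36, adjusted p = 0.0941). Groups did not overlap for either gene. UGP was again on the same side as PGRP-LF, from 59.0 ± 7.09 to 95.1 ± 7.42 CPM (0.69 ± 0.11, adjusted p = 0.0104), and its part was not tested.

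Among the secreted receptors, PGRP-SA was at 2.26, 3.98 and 3.21 CPM in control brains and 8.75, 4.30 and 8.36 CPM with shRNA. The groups did not overlap, and the log2 fold change of 1.18 ± 0.36 missed the threshold (edgeR adjusted p = 0.0584). PGRP-SD was at 0.991 to 2.09 CPM in controls and 1.03 to 3.26 CPM with shRNA, with overlapping groups (0.24 ± 0.53, adjusted p = 0.773). PGRP-LE, the most abundant member in brain per length, was at 28.0, 31.0 and 31.6 CPM in controls and 34.2, 35.3 and 33.4 CPM with shRNA. Its groups did not overlap and its log2 fold change was 0.18 ± 0.09 (adjusted p = 0.159). In all, 6 of the 9 members had shRNA libraries above every control, where 22% of all genes did.

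The other amidases were above every control in shRNA libraries 1 and 2 and below every control in library 3. PGRP-SC2 had 285, 16 and 1 counts in shRNA libraries 1, 2 and 3 and 4 to 14 counts in control brains. That is 10.9, 0.587 and 0.0350 CPM against 0.132 to 0.446 CPM, with overlapping groups (log2 3.85 ± 1.69, edgeR adjusted p = 0.141). PGRP-SB1 was at 15.3, 5.58 and 1.36 CPM with shRNA and at 1.85, 2.45 and 1.75 CPM in controls (1.88 ± 0.78, adjusted p = 0.125). PGRP-SB1 passed without shRNA library 3 (2.38, adjusted p = 0.0247). Without shRNA library 1, PGRP-SC2 was at 0.24 (adjusted p = 0.899) and PGRP-SB1 at 0.78 (adjusted p = 0.411). Without control library 3 as well, PGRP-SC2 was at -0.09 (adjusted p = 0.967) and PGRP-SB1 at 0.68 (adjusted p = 0.537).

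The shRNA libraries differed among themselves in PGRP genes and in markers of other tissues. Library 1 was highest of the 3 for 8 of the 9 PGRP genes. PGRP-LC, PGRP-LA, PGRP-SC2 and PGRP-SB1 had their levels in the order 1, 2, 3 from the highest. The other members did not keep that order: library 2 was lowest for PGRP-SA, PGRP-SD, PGRP-LF and PGRP-LB and highest for PGRP-LE. The 15 antimicrobial peptide genes summed to 403, 175 and 4.16 CPM in shRNA libraries 1, 2 and 3 and to 3.86 to 4.78 CPM in control brains. The 8 fat body markers summed to 4043, 2051 and 801.5 CPM, and to 399 to 859 CPM in controls. The 10 gut markers summed to 2124, 2.02 and 3.46 CPM, and to 0.733 to 2.46 CPM in controls, where 2 of the 10 were at 0 in all 3 libraries. The 8 muscle markers summed to 485.5, 1190 and 360.7 CPM, and to 137 to 356 CPM in controls, without overlap, and none of the 8 passed the test. Their part in the values of PGRP-SC2, PGRP-SB1 and the rest of the family was not tested.

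In shRNA library 3 the sums of the peptide genes, the gut markers and the fat body markers were near or within the control range. The fat body marker apolpp was above every control there, at 697 CPM. It was at 802 and 635 CPM in shRNA libraries 1 and 2, against 342 to 451 CPM in control brains. Of the 8 fat body markers 1 was called higher and 7 missed the threshold, where 11.5% of all genes were higher. In shRNA library 3, PGRP-SC2 and PGRP-SB1 were below every control, while PGRP-LC, PGRP-LE, PGRP-SA, PGRP-LA, PGRP-LF and PGRP-LB were above every control. The 12 hemocyte markers, in contrast, summed to 1415, 2023 and 1373 CPM in shRNA libraries 1, 2 and 3. In control brains they summed to 523 to 785 CPM, with no overlap. Col4a1, vkg and Ppn made up most of each sum, and Col4a1 alone was at 83.9 to 156.8 CPM in controls and 349.9 to 561.4 CPM with shRNA. Of the other markers, Hml, Pxn, Sr-CI and crq did not overlap between the groups, while srp, He, eater, NimC1 and NimC2 did. Of these 12 markers 5 were higher, none lower, and 7 missed the threshold, where 11.5% of all genes were called in each direction. Hml, a plasmatocyte marker, was at 23.9 to 71.97 CPM in controls and 133 to 244 CPM with shRNA, whereas NimC1 was at 5.32 to 11.2 CPM and then 4.60 to 7.20 CPM. PGRP-LC, PGRP-LA, PGRP-LF and PGRP-SA, with higher levels here, were much higher in control S2 cells than in control brain. So was PGRP-SD (log2 -4.57 ± 0.27 for brain against S2 cells), which was at 0.24 ± 0.53 with shRNA. PGRP-LB was not higher in S2 cells (1.06 ± 0.51) and was called higher with shRNA (1.40 ± 0.26). The part of hemocyte RNA in the levels of these genes was not tested.

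**Figure D4:**
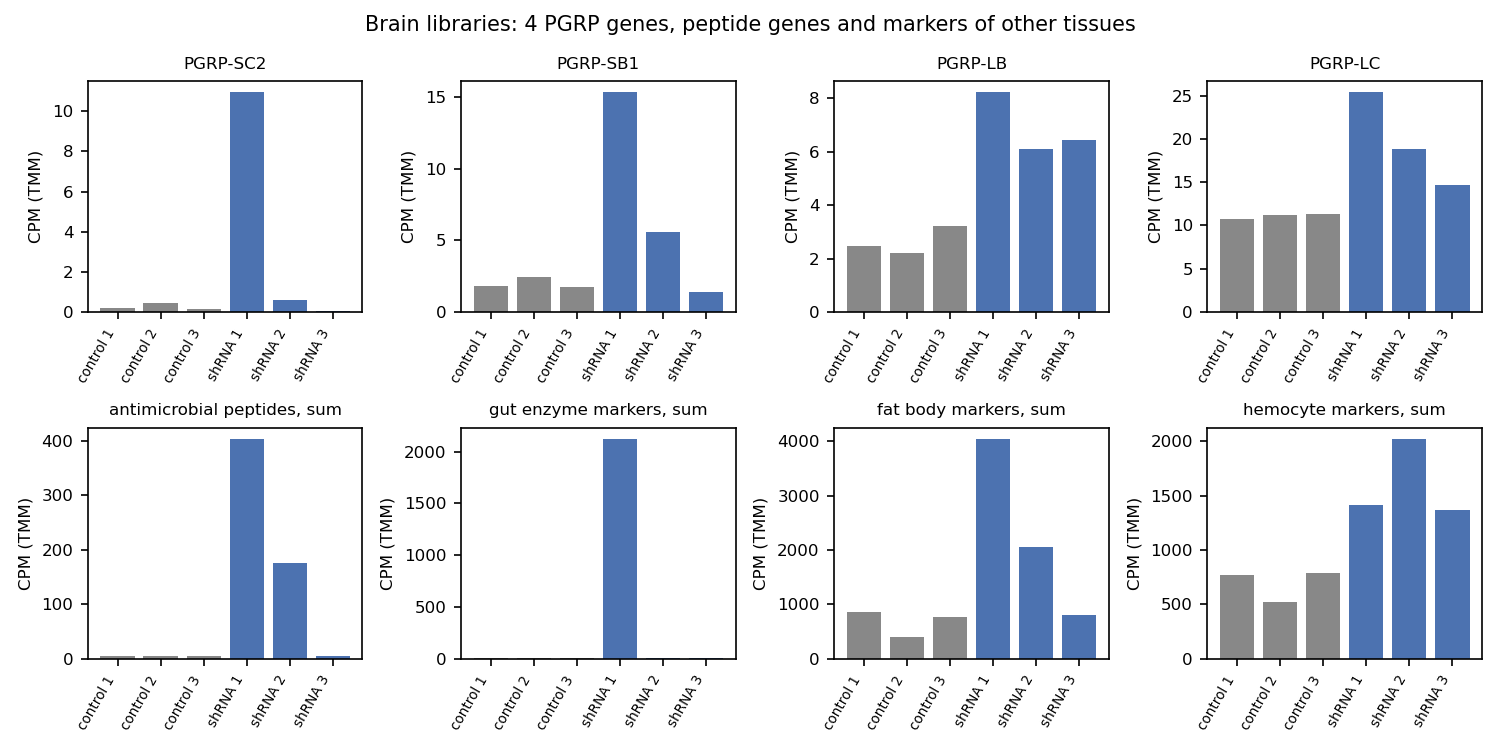
CPM (TMM) in each of the 6 brain libraries for PGRP-SC2, PGRP-SB1, PGRP-LB and PGRP-LC (top) and summed CPM of 4 gene lists (bottom); bars start at 0. In shRNA library 3 the peptide sum is within the control range, and PGRP-SC2 and PGRP-SB1 are below all controls. PGRP-LB (6.44 CPM) and PGRP-LC (14.7 CPM) are above all controls in that library.

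Of 20 Imd genes 0 were higher and 6 lower in brain, 14 missed the threshold, and the median was -0.07. Of all genes 23% were called there, 11.5% higher and 11.5% lower. The nuclear cofactor akirin fell from 396 ± 12.3 to 275 ± 56.5 CPM (log2 -0.53 ± 0.15), with Uev1A (-0.40 ± 0.11), the ubiquitin-conjugating enzyme eff (-0.39 ± 0.11) and casp, an inhibitor of Relish (-0.38 ± 0.07). Of 20 Toll genes 4 were higher and 2 lower, and 14 missed the threshold (median -0.04). The NF-kappaB factors Dif (25.3 ± 2.77 to 59.7 ± 8.76 CPM, 1.24 ± 0.14) and dl (0.71 ± 0.07), the serpin nec (1.72 ± 0.40) and the Toll ligand spz (0.79 ± 0.17) rose. Tl (-0.56 ± 0.09) and the transcription factor Deaf1 (-0.59 ± 0.10) fell. Of 15 antimicrobial peptide genes 6 were tested, and CecC, AttA and AttB were called higher, each with shRNA library 3 below 1 CPM. CecC had 0 to 3 counts in control brains and passed the filter only through the shRNA libraries (560, 31 and 11 counts). AttA, with 8, 33 and 9 counts in control brains, also passed it only with the shRNA libraries (249, 764 and 23 counts). AttA and AttB are near-identical copies whose reads the counting could have split.

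The effects of the knockdown in brain and in S2 cells were compared directly, by the interaction term of a joint fit. It passed for 4 of 9 members, 3 higher and 1 lower, where 41.1% of all genes passed (19.7% higher and 21.4% lower). The effect in brain was more positive than that in S2 cells for PGRP-LC by 1.90 ± 0.26 on the log2 scale (edgeR adjusted p = 0.000177), for PGRP-LA by 1.82 ± 0.33 (adjusted p = 0.00132) and for PGRP-LF by 1.79 ± 0.39 (adjusted p = 0.00366). For PGRP-LE it was lower, by -2.37 ± 0.25 (adjusted p = 3.20e-05). Each of these 4 passed in all 20 alternatives. The differences for PGRP-LB (0.04 ± 0.63, adjusted p = 0.988) and PGRP-SA (0.09 ± 0.58, adjusted p = 0.931) were smaller than their SE, and a difference of 1 log2 unit in either direction lay within 2 SE of both. For PGRP-SB1 (-0.59 ± 1.01), PGRP-SD (0.80 ± 0.55) and PGRP-SC2 (4.39 ± 1.96, adjusted p = 0.0955) the difference missed the threshold.

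Set against PGRP-LC in the same library, the amidase PGRP-LB was higher with knockdown in both systems. PGRP-LB per PGRP-LC, each per kb, was 0.00905, 0.0527 and 0.0246 in S2 controls and 0.160, 0.128 and 0.166 with dsRNA. In brain it was 0.481, 0.416 and 0.595 in controls and 0.683, 0.681 and 0.922 with shRNA, without overlap in either system. PGRP-LE per PGRP-LC went up in S2 cells, as given above, and down in brain, from 4.67 to 5.02 in controls to 2.43 to 4.10 with shRNA. These ratios are descriptions with no test.

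**Figure D5:**
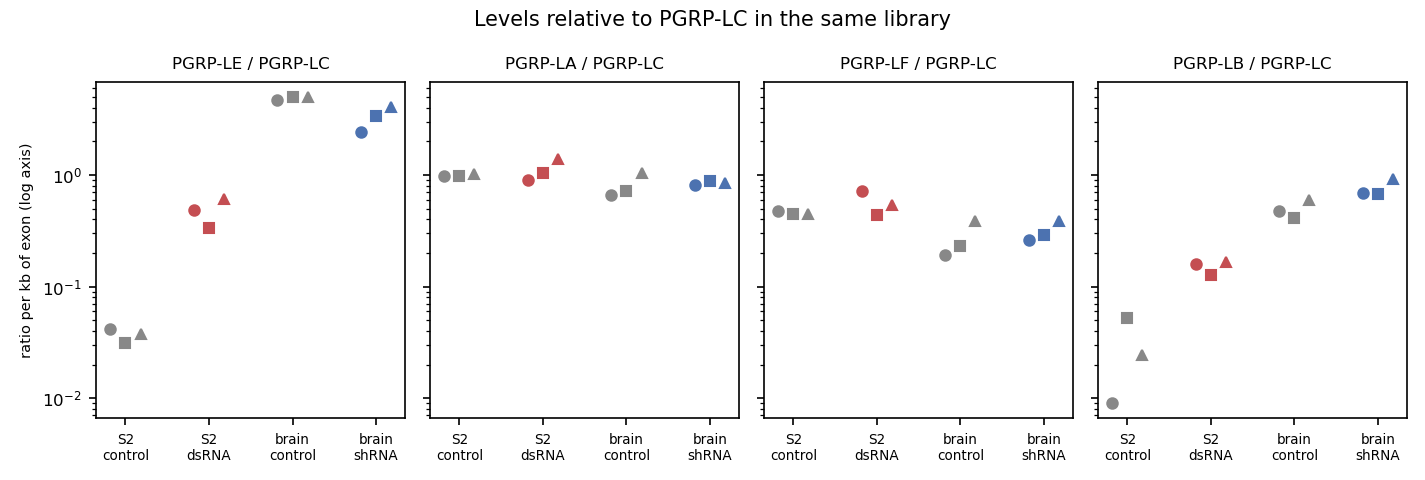
Level of 4 PGRP genes relative to PGRP-LC in the same library, each per kb of exon (log axis, shared by the panels), with 1 point per library. PGRP-LE per PGRP-LC lies between 0.0310 and 0.0419 in S2 controls and between 0.336 and 0.606 with dsRNA, while PGRP-LA and PGRP-LF keep to a narrower range in all 4 groups.

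The other PGRP genes of the annotation had few counts. PGRP-SC1a and PGRP-SC1b, amidases with near-identical coding sequence, had 0 counts in the 6 S2 libraries and at most 2 in a brain library, but reads that match both could have been left out of the counting. PGRP-SB2 had at most 1 count in an S2 library and 28, 0 and 16 counts in the shRNA brains. PGRP-LD, whose exons overlap those of other genes on both strands, had 0 to 37 counts and no call in either knockdown comparison.

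The genes whose levels over the 12 libraries were most like those of 3 members were sought by Pearson's r of log2(CPM + 1) after removal of each system's mean, among 6365 genes with at least 5 CPM in both systems. The points share library, depth and scaling, and no p is given. For PGRP-LC they were Kyat (r = 0.968), Cds, the CDP-diglyceride synthase (r = 0.960), and Sirup (r = 0.959). For PGRP-SA they were Mesh1, a metabolic hydrolase (r = 0.911), the tetraspanin Tsp66E (r = 0.889) and CG30491 (r = 0.883). For PGRP-LB, itself under that level, they were the NAD kinase Nadk1b (r = 0.941), CG15014 (r = 0.925) and the DNA repair nuclease mre11 (r = 0.922).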

How the data were processed

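Each of the 12 samples has 1 table of raw counts per gene, deposited by the authors. Per the submitters' processing notes, the tools were cutadapt 1.13, STAR, HTSeq 0.6.1p1 and DESeq2 and the build BDGP6, without roles. The sources used here give no strand setting or annotation release. Names and exon lengths came from BDGP6.54, which matched 17599 of 17737 identifiers; 1 listed gene had no match.

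In R 4.3.3, edgeR 4.0.16 (filterByExpr with a minimum count of 10, TMM, quasi-likelihood F test) was fitted across all genes of each comparison, with Benjamini-Hochberg adjustment over all genes tested and a threshold of 0.05. SE is the coefficient divided by the root of F. The fits were tested on simulated data. DESeq2 1.42.0 and the other alternatives are given at the end. Replicates of a group differed beyond sampling noise (chi-square per degree of freedom 24.1 to 165). Replicate numbers were not taken as pairs. The genes, lists, tests and alternatives were chosen with earlier results of these data known. Every member is named, with up to 4 called genes per direction of each signalling and peptide list.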

Additional observations from a re-analysis of the deposited data

Results flagged for a closer look

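For 4 PGRP genes the knockdown effect differed between brain and S2 cells in the test of that difference (edgeR interaction, brain minus S2, on the log2 scale). It was 1.90 for PGRP-LC (S2 -1.07, brain 0.82), 1.82 for PGRP-LA (S2 -0.92, brain 0.89) and 1.79 for PGRP-LF (S2 -0.80, brain 0.98). It was -2.37 for PGRP-LE (S2 2.57, brain 0.18). The tissue, the way of knocking Atx2 down and its controls differ between the systems and cannot be told apart. For PGRP-LF, the overlapping gene UGP had the same signs (S2 -1.51, brain 0.69).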

How the results depend on the processing

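Of the members' log2 fold changes over all alternatives, 451 kept their direction and their side of the threshold, 22 lost a call, 19 gained one and 20 changed sign, none of these with a call in the first place. In S2 cells library totals alone left 1 member lower, and the replicate block gave 5478 genes called and PGRP-SA as higher (0.95). In brain the count of genes called was 40 with the replicate block, 494 to 2364 without 1 library and 1231 with control 3 and shRNA 1 both left out. Members higher there were 0 with the block, 6 with DESeq2, 0 to 3 without 1 library and 1 with those 2 left out. Members higher in control brain than in control S2 cells were 2 with library totals alone and 1 to 3 without 1 library. The labels give the replicate numbers no shared origin, and same-numbered libraries did not deviate together in every pair (r = 0.0406 to 0.480 in S2 cells, -0.417 to 0.265 in brain). In S2 cells pairs 1 and 2 did so, at 0.480 and 0.435, and pair 3 did not. Libraries of different numbers had r from -0.472 to 0.341 in S2 cells and from -0.419 to 0.408 in brain. With the replicate block, brain PGRP-LC was at 0.79 (edgeR adjusted p = 0.0956) and PGRP-LB at 1.40 (adjusted p = 0.0696).

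Signs changed for brain PGRP-SD (-0.015 without control 3, -0.45 without shRNA 1, -0.70 without both; -0.45 to 0.52 without 1 library) and brain PGRP-SC2 (-0.092 without both). For the difference between systems they changed for PGRP-SA (-0.062 with upper quartile scaling, -0.39 with library totals, -0.064 without both brain libraries, -0.25 to 0.58 without 1 library). They also changed for PGRP-LB (-0.10, -0.43, -0.020 with the stricter filter, -0.17 with the replicate block, -0.65 to 0.43 without 1 library) and PGRP-SD (-0.12 without both brain libraries, an alternative chosen after seeing the data). The cause was not tested. Depth limits PGRP-LB, PGRP-SB1 and PGRP-SC2 in S2 cells, where control counts were 6 to 48.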

Other observations

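Within the S2 groups, libraries without a difference in label still differed in PGRP genes and peptide genes. S2 control library 2 was the highest of the 3 controls for PGRP-SA (85.8 CPM), PGRP-LB (2.06 CPM) and PGRP-SB1 (2.06 CPM), and it also had the highest sum of the 15 antimicrobial peptide genes (268 CPM against 136 and 161 CPM). Among the dsRNA libraries, library 3 was highest for PGRP-SA (230 CPM), PGRP-SB1 (11.1 CPM) and the peptide sum (1178 CPM against 639 and 669 CPM). PGRP-LC, PGRP-LA and PGRP-LF were highest in S2 control library 1, at 96.0, 53.1 and 16.6 CPM, where the peptide sum was lowest. That library was highest for 6 of the 9 members, PGRP-LE, PGRP-SD and PGRP-SC2 included. With dsRNA the order differed. PGRP-LC was highest in library 2 (49.9 CPM) and PGRP-LF in library 1 (10.1 CPM). PGRP-LA (29.6 CPM) and PGRP-LE (12.7 CPM) were highest in library 3, where the peptide sum was highest. With 3 libraries a group these orders were not tested.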
